A study of Rattus norvegicus with 6 samples.

Results

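Genes of nitric oxide, natriuretic peptide and cyclic GMP (cGMP) signalling were examined in rat aortic smooth muscle cells under fluid shear stress. The set was every probe set annotated with 1 of 10 symbols and no other: the nitric oxide synthases Nos1, Nos2 and Nos3, the soluble guanylate cyclase subunits Gucy1a1 and Gucy1b1, the natriuretic peptide Nppb and its receptors Npr1 and Npr3, the cGMP-dependent kinase Prkg1 and the phosphodiesterase Pde5a. It comprised 11 of the 31042 probe sets that were not array controls. These 11 represented 9 of the 10 genes. No probe set was annotated with Prkg1 alone, so the kinase was not analysed here.

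Shear arrays came from 3 confluent cultures kept at 14 dynes per square centimetre for 24 h in a parallel-plate chamber, and static arrays from 3 control cultures without flow. In all 6 cultures the cells were at passage 3 to 5, were grown in 10% fetal calf serum, and were then held for 24 h in medium with 0.1% bovine serum albumin. The labels join the cultures into pairs 1 to 3 but do not say what a pair shared, so the p-values reflect variation among these cultures alone, and that variation may be technical. Culture in the chamber and flow cannot be told apart in this design.

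Smooth muscle relaxes when cGMP rises. Nitric oxide made by the synthases activates soluble guanylate cyclase, an obligate heterodimer of an alpha and a beta subunit, while natriuretic peptides activate the membrane receptor Npr1, which carries its own cyclase domain. Npr3 has no cyclase domain and is known as the clearance receptor, Prkg1 carries much of the signal in vascular smooth muscle, and Pde5a hydrolyses cGMP.

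The 250 bases before the RefSeq start of the 2 fallen cyclase genes and of the 2 risen genes are printed here. These groups were formed by direction of change, so a shared direction within a group is not a result. Npr3, which also fell, is not printed. The sequences come from RefSeq (build GRCr8), which matched 9 of the 10 symbols. Gucy1a1 lies at chr2:169779624-169779873 and Gucy1b1 at chr2:169696988-169697237, both on the minus strand, with 1 annotated gene between them. Nppb lies at chr5:163699758-163700007 and Pde5a at chr2:213543776-213544025, both on the plus strand. Capitals mark CCAAT and GGGCGG in the cyclase genes, CATTCC and GATAA in Nppb, and GGGCGG in Pde5a, each on either strand.
Gucy1a1: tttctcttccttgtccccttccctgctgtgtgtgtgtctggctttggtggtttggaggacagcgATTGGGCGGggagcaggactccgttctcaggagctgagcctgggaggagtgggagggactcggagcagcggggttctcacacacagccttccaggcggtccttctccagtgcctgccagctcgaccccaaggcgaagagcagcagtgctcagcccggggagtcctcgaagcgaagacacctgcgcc
Gucy1b1: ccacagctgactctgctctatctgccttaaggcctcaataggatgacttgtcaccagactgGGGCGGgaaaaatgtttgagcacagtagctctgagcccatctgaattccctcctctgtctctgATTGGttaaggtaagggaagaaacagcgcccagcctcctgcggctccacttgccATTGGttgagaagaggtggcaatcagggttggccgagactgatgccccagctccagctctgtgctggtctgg
Nppb: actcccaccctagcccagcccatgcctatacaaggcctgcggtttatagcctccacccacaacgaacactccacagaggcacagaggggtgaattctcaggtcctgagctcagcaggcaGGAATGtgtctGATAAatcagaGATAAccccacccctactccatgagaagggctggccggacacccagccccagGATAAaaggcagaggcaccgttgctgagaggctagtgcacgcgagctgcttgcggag
Pde5a: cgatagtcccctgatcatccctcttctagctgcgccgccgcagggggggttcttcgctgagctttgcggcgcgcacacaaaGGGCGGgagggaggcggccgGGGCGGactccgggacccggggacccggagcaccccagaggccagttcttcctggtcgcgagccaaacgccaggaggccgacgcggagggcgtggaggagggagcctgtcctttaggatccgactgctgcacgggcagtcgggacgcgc

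Counted back from the start, the CCAAT box (CCAAT) began at -186 in Gucy1a1, where it overlapped the GC box (GGGCGG) that began at -183. Gucy1b1 had CCAAT boxes at -126 and -72 and a GC box at -189. Among 33465 rat promoters of this length, 34.0% held a CCAAT box and 30.5% a GC box. Nppb had the M-CAT element (CATTCC) at -131, a motif found in 12.1% of promoters, and the GATA motif (GATAA) at -120, -109 and -57, found in 23.5%. Pde5a had GC boxes at -169 and -149. Npr1, which lay below the filter on dim probe sets, also held both a CCAAT box (-142) and a GC box (-56). GC boxes were also present in Nos1 (-73) and Nos3 (-106), and GATA motifs in Nos3 (-234) and Prkg1 (-248). The AP-1 motif (TGANTCA), held by 6.34% of promoters, matched only Nos1 among the 9 members with a promoter, at -196. Npr3 matched none of these 5 motifs in this window.

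**Figure D1:**
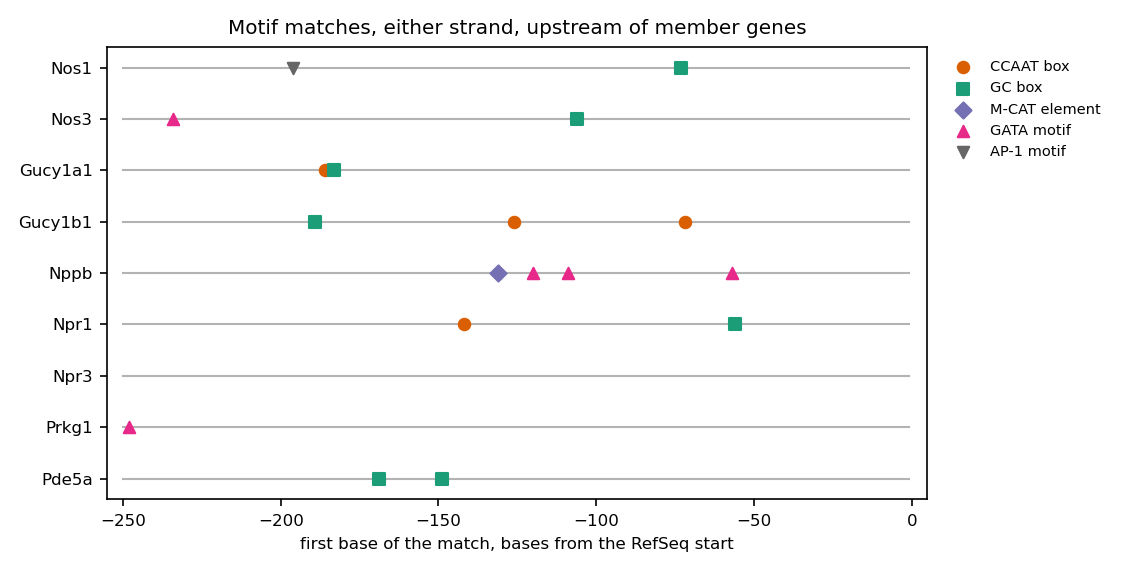
Positions of matches to 5 short motifs on either strand in the 250 bases before the RefSeq start of 9 member genes; the horizontal axis is the first base of a match, counted from the start. Both cyclase genes hold a CCAAT box and a GC box, as does Npr1, and Nppb holds 1 M-CAT element and 3 GATA motifs. GC boxes also lie in Nos1, Nos3 and Pde5a, and GATA motifs in Nos3 and Prkg1.

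Array medians were 17.3 to 18.9 in shear and 21.1 to 22.6 in static arrays, on a linear signal scale whose trimmed mean was 100.0 on every array. No detection calls were used, so whether a dim probe set measured any transcript is not known. Smooth muscle markers were bright: Tagln read 2721 to 2907 in shear and 2395 to 2962 in static arrays, and Acta2 read 740.0 to 916.0 in shear and 1657 to 1970 in static arrays. Of 10 smooth muscle markers, 7 fell and 0 rose, and Tagln, Myocd and Des did not pass. Over all tested genes 30.1% fell and 27.8% rose, and the other marker counts here stand beside the same shares. Among the endothelial markers, Pecam1 read 0.7 to 8.6 in shear and 1.7 to 4.8 in static arrays, Vwf 0.8 to 3.9 and 1.0 to 7.7, and the brighter Kdr probe set 1.0 to 2.7 and 1.0 to 8.1. Over 12 endothelial markers the summed signal was 435.3 to 466.3 in shear and 410.3 to 456.0 in static arrays, with 1 risen (Flt1) and 1 fallen (Egfl7) of 6 tested. Both calls are of the brightest probe set, with log2 changes of 0.66 for Flt1 and -0.4 for Egfl7. The other probe sets of Flt1 (-0.22 and -0.13) and of Egfl7 (-0.1) did not pass. Over 10 leukocyte markers the summed signal was 144.5 to 189.1 in shear and 196.7 to 255.7 in static arrays, with 2 risen (Cd68 and Coro1a) and 1 fallen (Cd14) of 5 tested. Cd14 read 81.9 to 122.8 in shear and 148.8 to 200.9 in static arrays, and Cd68 22.8 to 29.1 and 5.7 to 15.0, while Ptprc stayed at or under 3.0. For Coro1a only the sheared mean lay above the limit of the filter described below. The log2 ratio of 3′ to 5′ beta-actin signal, a sign of RNA quality, was 0.393 ± 0.028 in shear and 0.255 ± 0.036 in static arrays (SD, n = 3 each). It was 0.156 ± 0.006 in shear and 0.166 ± 0.010 in static arrays for GAPDH, and 0.815 ± 0.297 in shear and 0.796 ± 0.086 in static arrays for Hexokinase. The part of RNA quality in the changes below was not tested.

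Both soluble guanylate cyclase subunits and the clearance receptor Npr3 fell under shear, whereas Pde5a and Nppb rose. The synthases Nos1 and Nos2 did not pass the test, and Nos3 and Npr1 lay below the filter on dim probe sets. Changes are differences of log2(signal + 16), shear minus static, fitted in limma with the pair as a block over 21729 probe sets, and a change was called at a Benjamini-Hochberg adjusted p below 0.05. The filter left out the dimmest 30% by mean log2 signal and kept 9 of the 11 members. In 2 of those 9, Gucy1a1 1368154_at and Nppb, the mean of only 1 group lay above its limit, so these could pass only by differing.

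By probe set, 7 of 9 tested members were called, 2 risen and 5 fallen, against 52.8% of all tested probe sets, 24.3% risen and 28.5% fallen. By gene, with the brightest probe set standing for each, 5 of 7 tested members were called, 2 risen and 3 fallen. Over all tested genes 57.9% were called, 27.8% risen and 30.1% fallen, so a share of this order is common in these data. These counts include Gucy1a1 and Nppb, which passed the filter through 1 group, so they are a description. Without the filter the same 5 genes were called among 9, and 10596 of all 31042 probe sets. Of the 5 members with both means above the limit, Gucy1b1 and Pde5a were called at 2-fold or more, as were 16.6% of all tested genes. That share also covers genes with only 1 group mean above the limit, so the sets are unlike. Shear and static arrays did not overlap for 7 of the 9 tested member probe sets, against 60.0% of all tested ones. Of all called probe sets 46.1% were risen, or 59.1% after median centring, but the 5 called members kept their direction and call under both other scalings. In bulk RNA, fewer cells of a type and less RNA per cell cannot be told apart.

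**Figure D2:**
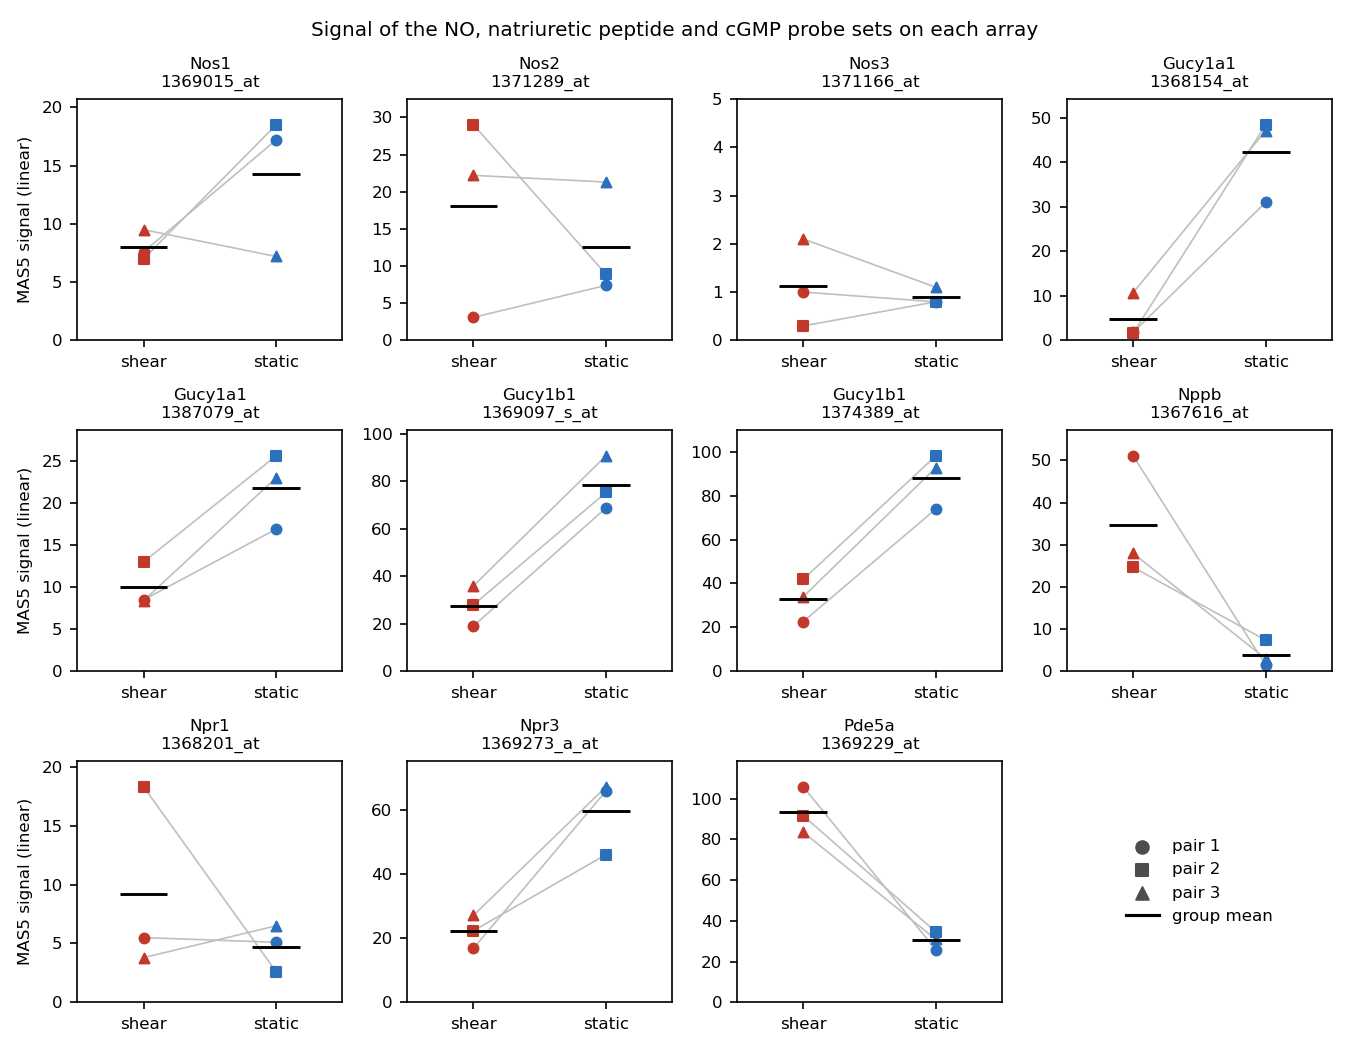
Linear MAS5 signal of the 11 member probe sets in the 3 shear arrays (red, left) and the 3 static arrays (blue, right); symbols mark pairs, grey lines join them and black bars are group means. All shear arrays lie below all static arrays for Gucy1a1, Gucy1b1 and Npr3 and above them for Nppb and Pde5a, while Nos1, Nos2, Nos3 and Npr1 overlap.

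Nos1, the neuronal nitric oxide synthase, read 7.6, 7.0 and 9.5 in shear arrays 1 to 3, against 17.2, 18.5 and 7.2 in static arrays 1 to 3. Static array 3 lay among the shear values, so the groups overlapped. The difference was -0.31 (95% interval -0.72 to 0.09) and did not pass (limma adjusted p = 0.17). Without pair 3 it was -0.54 and passed (limma adjusted p = 0.045), though that fit leaves only 1 residual degree of freedom.

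Nos2, the inducible synthase, read 3.1, 29.0 and 22.2 in shear arrays, against 7.4, 8.9 and 21.3 in static arrays. The lowest and the highest of the 6 values were both from sheared cells. The difference was 0.20 (95% interval -0.30 to 0.70, limma adjusted p = 0.47), with -0.29, 0.85 and 0.03 in pairs 1 to 3. It passed as risen without pair 1 (0.44, limma adjusted p = 0.048) and was -0.13 without pair 2, so pair 2 decides its direction.

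Nos3, the endothelial synthase, read 1.0, 0.3 and 2.1 in shear arrays, against 0.8, 0.8 and 1.1 in static arrays. Its mean stood at percentile 3.9 of all probe sets, among the dimmest on the array, and no change can be read from such values. Tested without the filter, it differed by 0.02 (limma adjusted p = 0.86). Of 12 endothelial markers, 6 were also below the filter (Pecam1, Vwf, Kdr, Tie1, Emcn and Cldn5), while Eng, Egfl7, Flt1, Erg, Esam and Tek were above it, with Eng at 217.0 to 234.0 in shear and 180.2 to 198.6 in static arrays.

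Gucy1a1 encodes the alpha-1 subunit of soluble guanylate cyclase, the receptor for nitric oxide. Its brighter probe set, 1368154_at, read 1.8, 1.6 and 10.7 in shear arrays, against 31.0, 48.4 and 47.1 in static arrays. The sheared mean was 4.70 ± 5.20 and the static mean 42.2 ± 9.69 (SD, n = 3 each). The sheared mean lay below the filter limit, so no ratio is given. Sheared values were near the bottom of the array's range, with the highest in pair 3. The change was -1.50 (95% interval -1.87 to -1.14, limma adjusted p = 0.00014), with -1.40, -1.87 and -1.24 in pairs 1 to 3.

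The other Gucy1a1 probe set, 1387079_at, read 8.5, 13.0 and 8.4 in shear arrays, against 16.9, 25.6 and 23.0 in static arrays. It fell less, by 0.54 (limma adjusted p = 0.0091), and did not pass without pair 3 (-0.47, limma adjusted p = 0.07). As a mean over both probe sets Gucy1a1 fell by 1.02. The direction was therefore shared by both probe sets, while the size was not.

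Gucy1b1 encodes the beta-1 subunit, which holds the heme that binds nitric oxide. Probe set 1374389_at read 22.7, 41.9 and 34.0 in shear arrays, against 73.9, 98.1 and 92.7 in static arrays. Its change was -1.11 (95% interval -1.38 to -0.83, limma adjusted p = 0.00015), and the ratio of means was 0.372. Probe set 1369097_s_at, whose suffix marks probes that may match several transcripts, read 19.1, 28.0 and 36.0 in shear arrays, against 68.8, 75.3 and 90.7 in static arrays. Its change was -1.12 (95% interval -1.40 to -0.85, limma adjusted p = 0.00015), and the ratio of means was 0.354. The 2 probe sets thus gave nearly the same change, and in both the lowest sheared value came from array 1.

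Nppb encodes B-type natriuretic peptide, a cardiac hormone that raises cGMP through Npr1. It read 51.1, 24.7 and 28.0 in shear arrays, against 1.5, 7.4 and 3.0 in static arrays. The sheared mean was 34.6 ± 14.4 and the static mean 3.97 ± 3.07 (SD, n = 3 each). The static mean lay below the filter limit, so no ratio is given. Every sheared value was above every static one, and array 1 was the highest sheared and the lowest static. The rise was 1.32 (95% interval 0.83 to 1.81, limma adjusted p = 0.0012), with 1.94, 0.80 and 1.21 in pairs 1 to 3.

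Npr1, the cyclase-bearing receptor for atrial and B-type peptides, read 5.5, 18.3 and 3.8 in shear arrays, against 5.1, 2.6 and 6.5 in static arrays. Shear array 2 alone stood above the others. At percentile 29.4 its mean was just under the filter, and without the filter it differed by 0.24 (limma adjusted p = 0.44). Npr3, which removes natriuretic peptides from the cell surface, read 16.9, 22.4 and 27.2 in shear arrays, against 66.1, 46.2 and 67.4 in static arrays. It fell by 0.99 (95% interval -1.33 to -0.65, limma adjusted p = 0.00086), with a ratio of means of 0.370. All sheared values were below the lowest static one.

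Pde5a, the cGMP-specific phosphodiesterase that sildenafil inhibits, read 105.8, 91.6 and 83.5 in shear arrays, against 25.8, 34.6 and 30.9 in static arrays. The sheared mean was 93.6 ± 11.3 and the static mean 30.4 ± 4.42 (SD, n = 3 each), a ratio of 3.08. The groups lay far apart relative to their spread. The rise was 1.24 (95% interval 0.92 to 1.55, limma adjusted p = 0.00018), with 1.54, 1.09 and 1.09 in pairs 1 to 3.

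**Figure D3:**
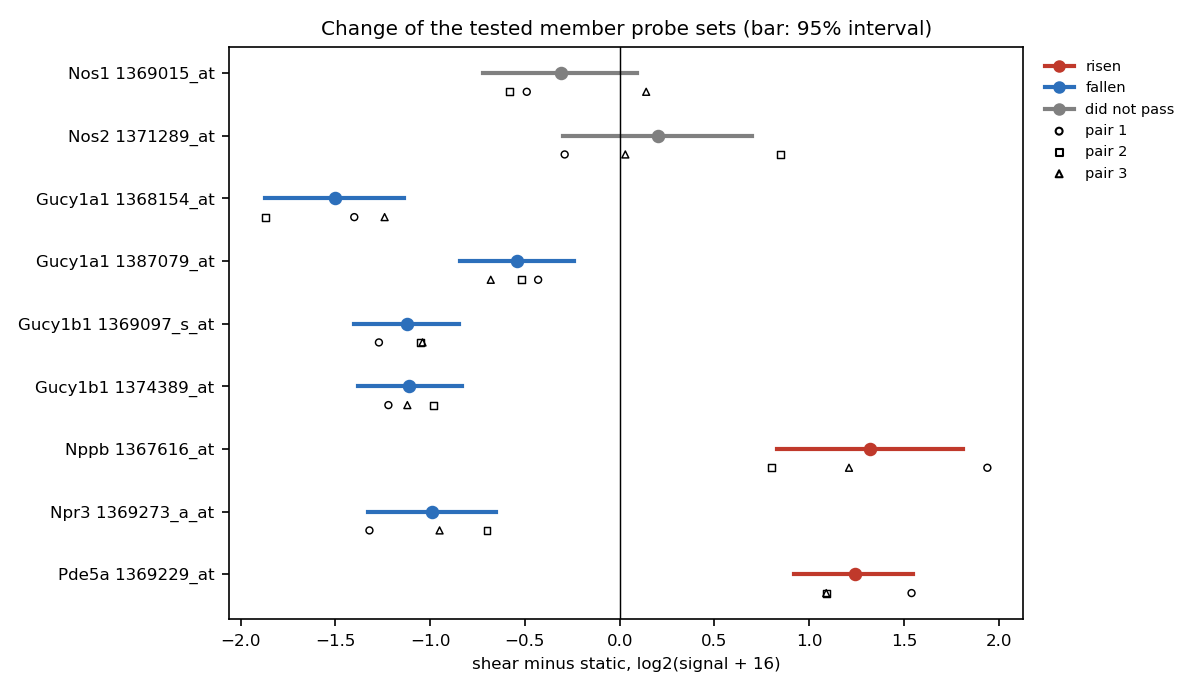
Change of the 9 tested member probe sets, shear minus static on the log2(signal + 16) scale; filled points and bars are the limma estimate and its 95% interval, open symbols the 3 pairs. The 2 Gucy1a1, 2 Gucy1b1 and Npr3 probe sets lie below 0 in every pair, Nppb and Pde5a above 0 in every pair, and the Nos1 and Nos2 intervals cross 0.

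The size of each change depended on the pseudocount, and the log2(signal + 16) scale understates changes of dim genes. With 1 in place of 16 the changes were -3.27 for Gucy1a1 1368154_at, 2.95 for Nppb, 1.59 for Pde5a, -1.43 for Gucy1b1 1374389_at and -1.40 for Npr3. With 64 they were -0.63, 0.53, 0.74, -0.65 and -0.52 in the same order. All 5 passed in both fits.

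**Figure D4:**
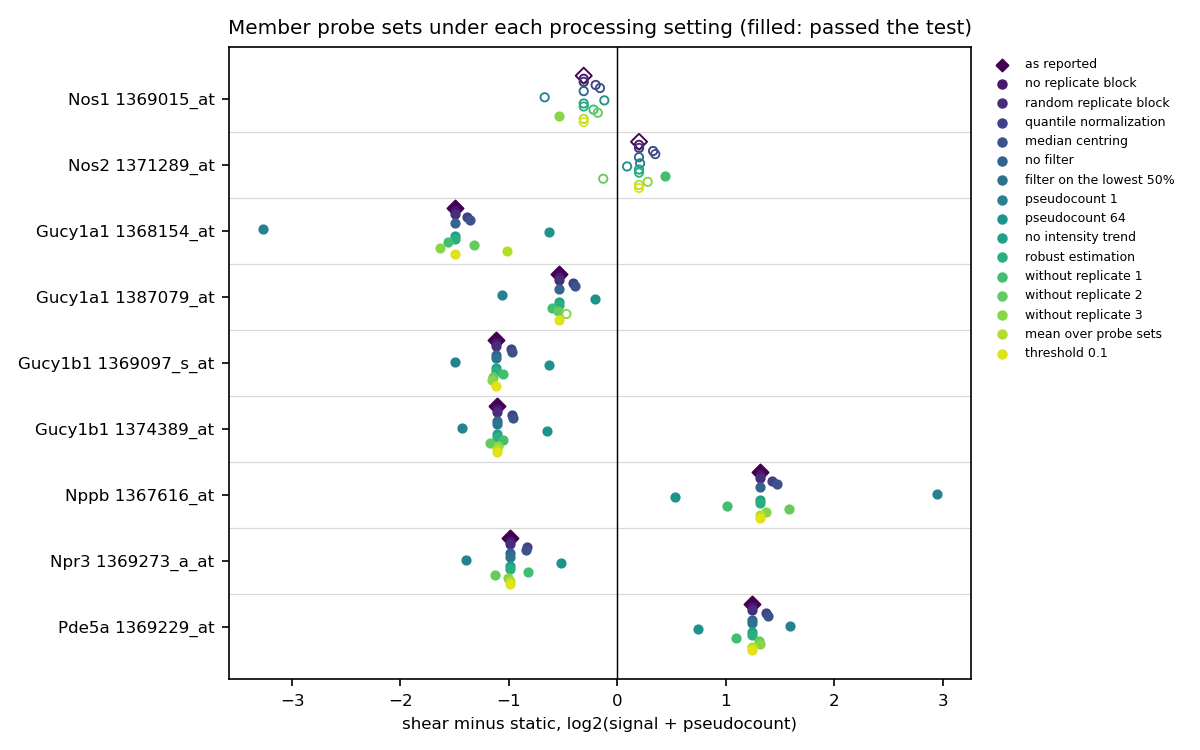
Change of the 9 tested member probe sets under each processing setting, shear minus static on the log2 scale; each point is 1 setting, filled where it passed the test, and diamonds are the reported values. For Gucy1a1 1368154_at, Gucy1b1, Nppb, Npr3 and Pde5a all points are filled and keep 1 sign, with values spread mainly by the pseudocount.

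The genes whose log2 values over the 6 arrays were most like those of Gucy1a1, the member with the largest change on the log2(signal + 16) scale, were Zmynd8 (Pearson r = 0.9994), Pfdn1 (0.9982), RT1-M3-1 (0.9978), Efs (0.9963) and Ptov1 (0.9961). The 6 arrays form 2 groups and all genes share these arrays, and 550 genes (4.89%) had an r above 0.95. Nppb changed more than Gucy1a1 after quantile normalization (1.43 against -1.39), after median centring (1.47 against -1.36) and without pair 2 (1.58 against -1.32). Pde5a also did after median centring (1.39). As a mean over probe sets Gucy1a1 changed by -1.02, less than Nppb (1.32), Pde5a (1.24) and Gucy1b1 (-1.11). With a pseudocount of 64 Gucy1a1 changed by -0.63, less than Pde5a (0.74) and Gucy1b1 1374389_at (-0.65). The changes of the 5 like genes were between -1.17 (Ptov1) and -0.36 (Pfdn1).

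A wider list of 56 other genes of the pathway had 49 with a probe set. Of the 38 tested, 10 rose, 17 fell and 11 did not pass, a share called of 71.1%, against 57.9% of all genes. The median change was -0.29 against -0.053 over all genes tested. The called genes include Gucy2c, Pde1a, Pde1c and Pln, whose mean lay below the filter limit in either shear or static arrays. They could pass only by differing, so the counts are a description. Without the filter 23 of 49 were called, and 10596 of all 31042 probe sets. Rises and falls both occurred among the synthase regulators, tetrahydrobiopterin genes, peptide genes, phosphodiesterases, exporters and kinase partners. Genes named below beyond the 8 largest rises and 8 largest falls were chosen after their values were seen.

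Among 5 tested genes of arginine supply and competition, 2 rose and 0 fell, a share called of 40.0%, against 57.9% of all tested genes. The arginine transporter Slc7a1 read 1355, 1148 and 1230 in shear arrays, against 608.4, 629.6 and 623.4 in static arrays, a rise of 0.98 (limma adjusted p = 4.9e-05). Its other 2 probe sets rose by 1.25 and 1.75. Asl, which releases arginine from argininosuccinate, read 171.6, 162.6 and 160.1 in shear arrays, against 73.8, 82.3 and 69.8 in static arrays, on the probe set whose accession RefSeq gives to Asl, and rose by 0.99 (limma adjusted p = 0.00019). Its brighter probe set in the platform annotation, which rose by 0.75, carries an accession that RefSeq gives to Hnrnpab. Ass1, the step before it, was dim and did not pass (0.06, limma adjusted p = 0.72), nor did Slc7a2 and Arg1.

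For tetrahydrobiopterin, the cofactor of the synthases, 2 genes rose (Gch1 and Qdpr) and 2 fell (Gchfr and Pts) of 4 tested. Of all tested genes 27.8% rose and 30.1% fell. Gch1, the first and rate-limiting enzyme, read 39.2, 121.7 and 128.8 in shear arrays, against 24.1, 22.3 and 19.4 in static arrays, a rise of 1.45 (95% interval 0.80 to 2.09, limma adjusted p = 0.0031). The difference was smallest in pair 1, at 0.46, against 1.85 and 2.03 in pairs 2 and 3. Gchfr, whose product holds that enzyme in check, read 16.6, 24.0 and 17.5 in shear arrays, against 49.8, 43.8 and 59.1 in static arrays, and fell by 0.92 (limma adjusted p = 0.0012).

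Both tested genes for breakdown of methylarginines, which inhibit the synthases, fell (Ddah1 and Ddah2). Over all tested genes 30.1% fell and 27.8% rose. Ddah1 read 1199, 882.7 and 865.9 in shear arrays, against 2122, 1795 and 1768 in static arrays, and fell by 0.95 (limma adjusted p = 3e-05). Ddah2 fell by 0.56 (limma adjusted p = 0.036), unevenly, with -1.14, -0.38 and -0.17 in pairs 1 to 3. Among 4 tested regulators of the synthases, Nosip, a synthase-interacting protein, rose by 0.67 (limma adjusted p = 0.0021), 2 fell (Cav1 by 0.67 and Nostrin by 0.41) and Nos1ap did not pass.

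Among other guanylate cyclases, Gucy2c, the intestinal receptor for guanylin, read 36.9, 18.2 and 21.3 in shear arrays, against 2.4, 9.9 and 7.6 in static arrays, a rise of 0.86 at low signal (limma adjusted p = 0.011). Without pair 1 the rise was 0.53, and only the sheared mean of Gucy2c lay above the filter limit. Npr2, the receptor for C-type peptide, did not pass (-0.17, limma adjusted p = 0.36). The other soluble cyclase subunits Gucy1a2 and Gucy1b2 lay below the filter. Among genes of natriuretic peptides and their processing, the convertase Furin, which cuts the B-type precursor, rose by 0.97 (limma adjusted p = 0.0003), Mme, the peptide-degrading neprilysin, fell by 0.76 (limma adjusted p = 0.0049), and Nppa did not pass.

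Of 7 other phosphodiesterase genes tested, 1 rose (Pde2a, by 0.57) and 3 fell (Pde1a, Pde1c and Pde6d), against 27.8% risen and 30.1% fallen of all tested genes. Pde1a, a calmodulin-stimulated enzyme, read 0.4, 2.0 and 0.8 in shear arrays, against 17.0, 20.2 and 10.8 in static arrays, and fell by 0.90 (limma adjusted p = 0.0012). For Pde1a and Pde1c only the static mean lay above the filter limit, so these could pass only by differing. Pde6d, known mainly as a carrier of prenylated proteins, fell by 1.52 (limma adjusted p = 0.00029). For export of cGMP, the transporter Abcc4 read 222.8, 163.1 and 151.1 in shear arrays, against 80.4, 64.6 and 75.4 in static arrays, and rose by 1.11 (limma adjusted p = 0.00019), while the related Abcc5 fell by 0.57 (limma adjusted p = 0.0046).

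Partners and substrates of the cGMP kinase fell in 6 of 9 cases and rose in 1, against 30.1% fallen and 27.8% risen of all tested genes. The 6 include Pln, an inhibitor of the calcium pump of the sarcoplasmic reticulum, for which only the static mean lay above the filter limit. Irag1, which ties the kinase to the inositol trisphosphate receptor, read 12.8, 8.7 and 12.8 in shear arrays, against 93.9, 65.8 and 63.5 in static arrays, and fell by 1.71 (95% interval -2.02 to -1.40, limma adjusted p = 3.6e-05). Itpr1, that calcium release channel, read 67.0, 48.7 and 31.4 in shear arrays, against 289.6, 263.8 and 258.9 in static arrays, and fell by 2.18 (limma adjusted p = 1.6e-05). The groups lay far apart for both.

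Hspb6, a small heat shock protein phosphorylated by cyclic nucleotide-dependent kinases, read 55.2, 36.8 and 25.3 in shear arrays, against 248.9, 235.7 and 241.1 in static arrays, and fell by 2.26 (limma adjusted p = 1.8e-05). Crip2, a LIM-domain protein, fell by 1.13 (limma adjusted p = 1.9e-05). Vasp, an actin regulator and classical kinase substrate, was the gene of this group that rose, by 0.63 (limma adjusted p = 0.00058). Of 10 smooth muscle markers, 7 also fell (Acta2 by 1.10, Lmod1 by 2.01), while Tagln, Myocd and Des did not pass. For Lmod1 only the static mean lay above the filter limit. The part of these markers in the result was not tested.

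**Figure D5:**
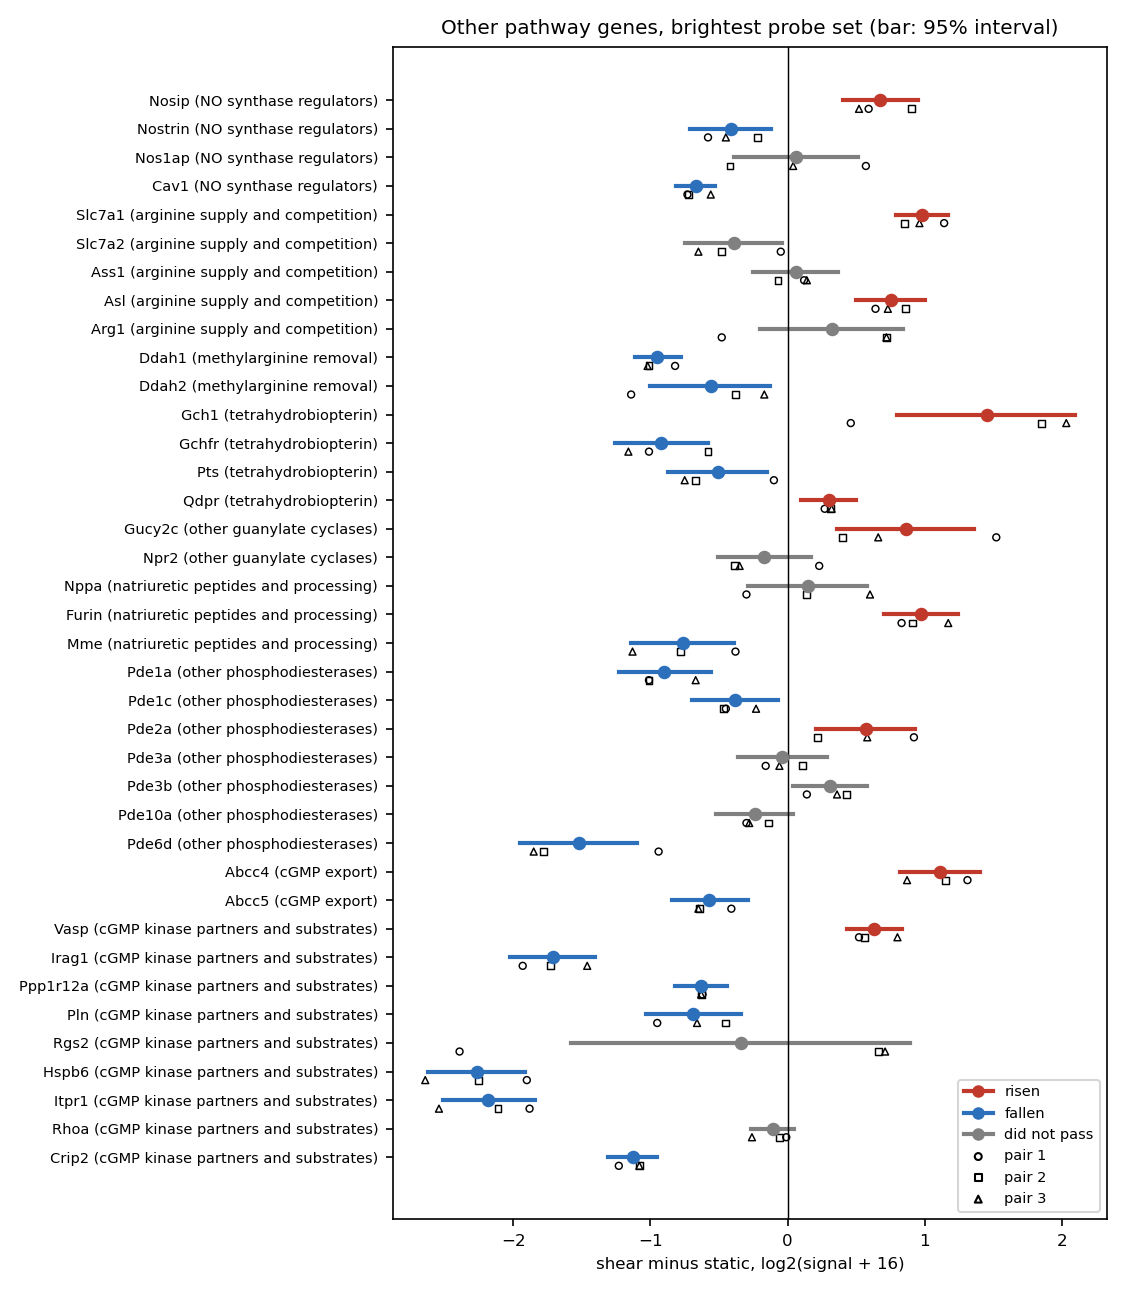
Change of the 38 tested genes of the wider list, shear minus static on the log2(signal + 16) scale, grouped by role; filled points and bars are the limma estimate and its 95% interval, open symbols the 3 pairs. Irag1, Itpr1 and Hspb6 lie farthest below 0, and Gch1, Abcc4 and Slc7a1 farthest above.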

How the data were processed

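Per the submitters' processing notes, the authors made the deposited intensity values, 1 linear signal per probe set and array, with MAS5 (its version is not stated in the labels). The table held 31099 probe sets, 57 of them array controls. Only the 20826 that the platform annotation gives a single symbol were named; 436 had more than 1 and 9780 lacked one. Of 11 member probe sets, 6 had an accession in the RefSeq table, all 6 of the annotated gene. Array values had 3 to 10 exact zeros, so 16 was added before log2. The dimmest 30% by mean log2 value (limit 4.50) were not tested. Fits used limma 3.58.1 (R 4.3.3) with an intensity trend and the pair as a fixed block, two-sided, and were tested on simulated data; the number of arrays limits the precision. Labels give the pairing. Partners' deviations from their groups' averages had correlations of 0.071, 0.065 and 0.063, and each of the 6 arrays' deviations correlated most with its own partner's. Named genes were all members, the 8 risen and 8 fallen pathway genes with the largest consistent change, and the 5 most like the top member. Members, lists and tests were chosen with earlier results of these data known. Figures used matplotlib 3.10.9. Alternatives covered the block, scaling, filter, pseudocount, variance estimation, threshold, probe set averaging and each pair left out.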

Additional observations from a re-analysis of the deposited data

How the results depend on the processing

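The count of called members stayed at 5 or 6 of those tested under all alternatives but the stricter filter. That filter left out the lowest 50% of probe sets and kept 3 members, all called (Gucy1b1, Npr3 and Pde5a), as were 10043 of 15521 probe sets. The sixth member was Nos2 without pair 1 or Nos1 without pair 3. Pathway calls ranged from 22 (without pair 3) to 31 (without pair 1) of 38 tested, against 27. Those 2 fits called 8441 and 13009 of 21729 probe sets. Without the replicate block 5 members, 29 pathway genes and 11430 probe sets were called; among the 9 member probe sets and the 16 pathway genes named by rule it changed no call, and the other pathway genes named in the text were not compared singly. Leaving out a pair gave 8441 to 13009 called probe sets, against 11471, with 1 residual degree of freedom. The median change of all probe sets was -0.067, and became 0.021 with quantile normalization and 0.082 with median centring. Of 128 alternative values for 9 member probe sets, 124 kept direction and call. Nos2 reversed without pair 2 (-0.13; the range over the pairs left out was -0.13 to 0.44); the cause was not tested. All 237 values for the 16 pathway genes named by rule kept both, with the same limits. Among them are values of Gucy2c and Pde1a, which passed the filter through 1 group. For Asl the values came from the probe set whose accession RefSeq gives to Hnrnpab, apart from the mean over probe sets. The other Asl probe set was not compared singly. Nos3 and Npr1 were dim enough to lie below the filter. For Nppb and the brighter Gucy1a1 probe set, only 1 group mean lay above its limit. Nos1 and Nos2 had both group means above it, and their pairs differed in sign.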

Other observations

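Pair 1 differed from pairs 2 and 3 in some genes of the wider list, chosen here after their values were seen. Rgs2, a regulator of G-protein signalling that the cGMP kinase phosphorylates, read 65.6, 416.9 and 434.1 in shear arrays, against 412.4, 258.6 and 259.3 in static arrays, with changes of -2.39, 0.66 and 0.71 in pairs 1 to 3. Its second probe set gave -1.98, 0.58 and 0.65. Arg1, which competes with the synthases for arginine, read 159.2, 347.2 and 357.8 in shear arrays, against 227.7, 204.7 and 210.8 in static arrays. Neither passed (Rgs2 limma adjusted p = 0.62, Arg1 limma adjusted p = 0.27). The second Gch1 probe set gave -0.09, 1.07 and 0.94 in pairs 1 to 3 (limma adjusted p = 0.046). Whether pairs differ was not tested.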
